A study of Mus musculus with 6 samples.

Results

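Genes for subunits of voltage-gated ion channels and their relatives were examined in the outflow tract, the tube through which the embryonic heart of the mouse empties. Members were taken by name and by brightness. A probe set entered when it named 1 gene, when that gene's symbol began with Kcn, with Cacn or with Scn and a digit, and when its mean signal over the 6 arrays exceeded 15. Kcnj8 and Kcnj11 were left out. Of 249 probe sets of 117 genes with such symbols, 55 probe sets of 42 genes passed, out of 45037 probe sets other than controls in the whole table. The mean signal chose the members, so it is given as a description only. The tissue came from CD1 embryos at embryonic day 10.5, and the labels name no allele or treatment for either region. Superior tissue was dissected apart from inferior tissue, and 3 pools of each were hybridised, numbered 1, 6 and 7 in both regions. Each pool held pieces of 6 littermates according to the sample labels, while the design text of the series counts 7 pieces per domain. Since every array measured whole pooled tissue, fewer cells of a type and less RNA per cell cannot be told apart.

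The name "voltage-gated" covers only some of the genes that the symbols bring in. Among the 42 genes, 17 encode pore-forming subunits of voltage-gated calcium or potassium channels and 14 encode auxiliary subunits, which set where a channel goes and how it opens. Another 8 encode potassium pores that are not opened by voltage in the classical way: inward rectifiers, tandem-pore-domain leak channels and a calcium-activated channel. Scn7a belongs to the sodium channel alpha family but is known as a sodium-sensing channel. The other 2, Kcnq1ot1 and Kcnmb4os2, are non-coding RNAs named after a channel gene.

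Heart muscle cells fire action potentials because these channels open in sequence. Sodium and calcium channels carry the inward current that depolarises the cell, L-type calcium channels trigger contraction, T-type calcium channels are prominent in embryonic muscle and in pacemaker tissue, and potassium channels bring the membrane back to rest. At the stage studied here the muscle of the outflow tract conducts slowly and contracts like a sphincter, and mesenchyme fills the space between muscle and endocardium.

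MAS5 signals are relative to the rest of an array and have no unit. The 6 arrays had median signals between 13.9 and 17.6, and the highest signal among 27 control probe sets for Bacillus transcripts, 8.0, served as the background level. All 7 heart muscle markers, Tnnt2 and Nkx2-5 among them, lay above that level on every array. Their summed signals were 22522, 24595 and 23859 in superior and 21310, 21148 and 21302 in inferior pools 1, 6 and 7, without overlap. Of the 7, 4 were higher and 3 lower in superior pools, and 0 were called in the region tests below. Of the 55 member probe sets, 51 lay above the background level on all 6 arrays, and 35 had a mean signal under 50, so most members were dim. For 5 probe sets only the inferior mean exceeded 15: those of Cacna1s, Cacna1b, Kcna7 and Cacnb1 and the dimmer one of Kcnn4. Their lower superior signal was fixed by the rule and supports nothing. Brightness depends on the probes, and signals of different probe sets were not compared as levels of RNA. Just inside the threshold lay Kcnj12, Cacna1s and Cacna1b, with mean signals of 16.47, 15.97 and 15.9. Just outside lay Kcnn2 at 14.97, Scn4b at 14.32 and a dimmer Kcnq3 probe set at 13.98.

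No member differed between the regions after correction for all probe sets tested. The comparison was superior minus inferior on the scale log2(signal + 3.2), fitted with limma over 22518 probe sets, of which 53 were members of 40 genes. The unpaired fit called 0 of the 22518 (0%) at an adjusted p threshold of 0.05 and 0 of the 53, and the adjusted p of every tested member was 1 after rounding. With the pool number as a block, the paired fit called 36 probe sets (0.160%) but still 0 members, with adjusted p from 0.24 upwards. Before adjustment, 6 members (11.3%) had a p under 0.05 without pairing, against 3.52% of all probe sets tested. Of these, 2 were higher in superior pools (1.78% of all tested) and 4 lower (1.74% of all). With pairing, 12 members (22.6%) had such a p, against 11.0% of all: 4 were higher (4.98% of all) and 8 lower (6.00% of all). The dimmer Kcnn4 probe set is among the lower ones in both counts, which are 3 and 7 without it. Log2 differences below are given with the standard error (SE) of the unpaired fit, and each mean with the SD of 3 pools.

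In the brightest probe set of each gene, 25 genes were lower and 17 higher in the superior pools, and their median on the log2 scale was -0.09 against -0.02 over all probe sets tested. With the 4 genes left out whose brightest probe set passed through inferior arrays alone, 21 were lower and 17 higher and the median was -0.04. Over all 42, quantile normalization brought the split to 22 lower and 20 higher. For 34 of the 42 genes the difference lay within 0.5 either way, a smaller share than the 96.8% of all probe sets tested. Among the 38 genes with both region means above 15, 3 were lower in superior pools by more than 0.5 (2.11% of all tested probe sets) and 3 higher (1.08% of all). The regions overlapped for most members, and 7 of 53 tested probe sets had no overlap, against 9.21% of all. Of these 7, 5 had all superior values below all inferior values (4.56% of all; 4 without Kcna7) and 2 had them all above (4.65% of all). Within same-numbered pools, 21 of the 53 kept a single direction in all 3 pools, against 34.0% of all tested. Of these 21, 15 were lower (13 without the dimmer Kcnn4 and Kcna7 probe sets) and 6 higher in superior tissue, where all probe sets tested gave 4271 lower and 3378 higher.

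**Figure D1:**
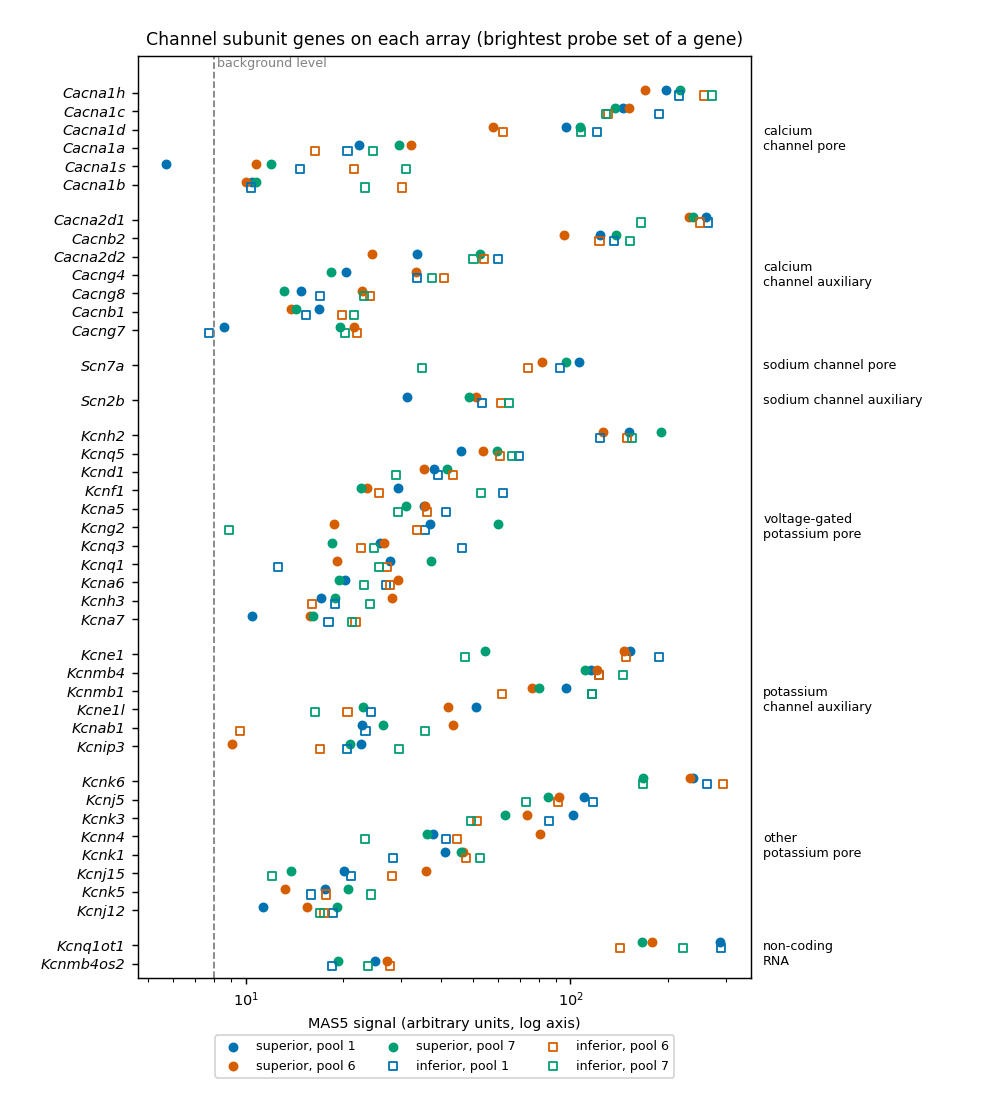
MAS5 signal (log axis, arbitrary units) of the brightest probe set of each of the 42 genes, grouped by role, with 1 point per array. Filled circles are superior and open squares inferior pools, colours give the pool number, and the dashed line is the background level of 8.0. Cacna2d1, Kcnk6, Cacna1h and Kcnq1ot1 had the brightest probe sets, and for most genes the regions overlap.

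Of the 9 calcium channel pore genes with a probe set, 6 were members. Cacna1h encodes a T-type pore. Its signals were 196.5, 169.0 and 217.7 in superior pools 1, 6 and 7 and 216.1, 258.0 and 272.6 in inferior pools 1, 6 and 7. Inferior tissue was higher in each pool, although the regions overlapped by the width of superior pool 7. The means were 194 ± 24.4 and 249 ± 29.3, a 1.28-fold higher inferior signal and a log2 difference of -0.35 ± 0.15 (SE), with log2 differences of -0.14, -0.60 and -0.32 in pools 1, 6 and 7. The other T-type gene on the fixed cardiac list, Cacna1g, was no member, with superior and inferior mean signals of 9.93 and 16.4.

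Cacna1c and Cacna1d encode the L-type pores of heart muscle, the former dominant in working muscle and the latter known from pacemaker cells. For Cacna1c the signals were 145.3, 151.3 and 137.4 in superior and 187.5, 130.3 and 129.0 in inferior pools. Only inferior pool 1 stood away from the rest, and the log2 difference of -0.02 ± 0.17 turned sign under 3 other scalings (0.01 to 0.02). A dimmer Cacna1c probe set gave -0.16 ± 0.26. Cacna1d gave 96.7, 57.8 and 107.3 in superior and 120.8, 61.8 and 107.6 in inferior pools, so that both arrays of pool 6 lay at the bottom whatever the region. Its region difference was -0.14 ± 0.31.

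RefSeq lists 2 starts for Cacna1d on chromosome 14 of GRCm38.p6, minus strand, and their upstream windows show how unlike the promoters of 1 channel gene can be. The array does not separate transcripts from the 2 starts. Each line below holds the 250 bases before a start, 5′ to 3′. Capitals mark CG dinucleotides in the window at chr14:30353487-30353736 and the letters TATAAA in the window at chr14:30491157-30491406.
Cacna1d CG-rich start: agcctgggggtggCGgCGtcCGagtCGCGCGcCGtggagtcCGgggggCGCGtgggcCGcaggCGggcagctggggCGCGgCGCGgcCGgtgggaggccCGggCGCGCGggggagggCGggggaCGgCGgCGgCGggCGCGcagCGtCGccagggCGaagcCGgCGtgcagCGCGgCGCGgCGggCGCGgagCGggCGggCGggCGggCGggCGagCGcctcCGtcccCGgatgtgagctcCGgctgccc
Cacna1d AT-rich start: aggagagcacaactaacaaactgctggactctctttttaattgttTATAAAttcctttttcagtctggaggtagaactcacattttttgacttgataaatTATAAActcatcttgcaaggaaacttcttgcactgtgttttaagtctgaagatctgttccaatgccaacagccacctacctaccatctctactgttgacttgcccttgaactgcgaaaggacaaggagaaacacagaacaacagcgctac
The first window is 86.4% G or C with 50 CG dinucleotides, and the second is 39.6% with 2. The second is the 1 window of 41 member windows that holds TATAAA on either strand, where 12.4% of all windows in the RefSeq table and 4.76% of those of the other family genes do. The copy nearer the start ends 144 bases before it, and whether these letters act in the promoter was not tested. The GC box letters GGGCGG occurred on either strand in 19 of the 41, or 46.3%, against 32.7% of all windows and 41.7% of those of family genes that were no members. At least 10 CG dinucleotides stood in 31.7%, against 37.8% of all windows and 44.0% of that group. The 41 windows belong to 31 of the 42 genes, and their median G and C content was 58.0% against 52.4% over all windows. Family genes that were no members had a median of 58.6%.

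Cacna1a, a P/Q-type pore known from neurons, had signals of 22.4, 32.3 and 29.6 in superior and 20.6, 16.4 and 24.6 in inferior pools. The log2 difference was 0.40 ± 0.23, while its dimmer probe set ran the other way at -0.21 ± 0.24. Cacna1s, the L-type pore of skeletal muscle, had signals of 5.7, 10.8 and 12 in superior pools and 14.7, 21.5 and 31.1 in inferior pools. All inferior values lay above all superior ones, a log2 difference of -1.0, and superior pool 1 was under the background level. The N-type gene Cacna1b, shown after its values were seen, had 10.5, 10 and 10.8 in superior and 10.4, 30.4 and 23.3 in inferior pools, so its difference of -0.75 rested on inferior pools 6 and 7. Neither gene passed the filter for the test, and both exceeded a mean signal of 15 only through their inferior arrays, which had to be higher for that reason.

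Among auxiliary subunits of calcium channels, 7 of 15 genes were members, 5 of them lower in superior pools, and the median of their log2 differences was -0.28. That median is the value of Cacnb1, counted among the 5, which passed the threshold through its inferior arrays alone. Its direction was fixed by the rule, so the count and the median support no region difference. Cacna2d1, the alpha-2/delta subunit that brings L-type channels to the membrane, had signals of 260.6, 230.8 and 238.6 in superior and 265.5, 250.9 and 165.3 in inferior pools. Apart from the low inferior pool 7 the arrays were close, and the log2 difference of 0.13 ± 0.19 became -0.09 without that array. Its dimmest probe set ran the other way, at -0.54 ± 0.26. Cacnb2, the main beta subunit of heart muscle, gave 123.1, 95.2 and 138.1 against 135.8, 122.8 and 152.4. Inferior values were higher in each pool but overlapped the superior ones (log2 -0.21 ± 0.17). Cacna2d2 had 33.8, 24.5 and 52.5 in superior and 60.0, 54.3 and 50.3 in inferior pools. Superior pools 1 and 6 were low and pool 7 was not, which gave log2 differences of -0.77, -1.05 and 0.06 and a mean of -0.59 ± 0.27.

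Cacng4 belongs to the gamma family, whose members also regulate glutamate receptors. Its brighter probe set had signals of 20.4, 33.4 and 18.3 in superior and 33.7, 40.7 and 37.6 in inferior pools, with no overlap and a log2 difference of -0.61 ± 0.24. Its dimmer probe set had 26.1, 30 and 25 against 24.6, 23.6 and 19.7, also with no overlap but in the opposite direction (0.23 ± 0.19). The probe sets of this gene therefore disagree on which region is higher. The remaining members of this group, Cacng7, Cacng8 and the beta subunit gene Cacnb1, had mean signals from 16.6 to 19.2 and log2 differences of 0.01, -0.31 and -0.28, Cacnb1 having a superior mean of 14.97.

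The sodium channel families were sparsely represented. Of 8 alpha genes with a probe set, Scn7a alone was a member, and of 3 beta genes Scn2b alone. Scn7a signals were 106.5, 81.5 and 97.0 in superior and 92.9, 74.2 and 34.9 in inferior pools. Most of the log2 difference of 0.57 ± 0.33 came from the low inferior pool 7: it was 0.18 without that array, and pools 1, 6 and 7 gave 0.19, 0.13 and 1.4. A dimmer Scn7a probe set gave 65.0, 45.2 and 64.7 against 36.5, 41.4 and 41.7, with no overlap, and a difference of 0.50 ± 0.20. Its contributions of 0.78, 0.12 and 0.60 leaned on pools 1 and 7. Both probe sets thus had a higher superior signal in each pool, by little in pool 6. Scn2b, an adhesion-type beta subunit, had 31.5, 51.1 and 48.7 in superior and 53.3, 61.3 and 64.8 in inferior pools. The regions did not overlap, and inferior pools were 1.36-fold higher (log2 -0.45 ± 0.22).

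**Figure D2:**
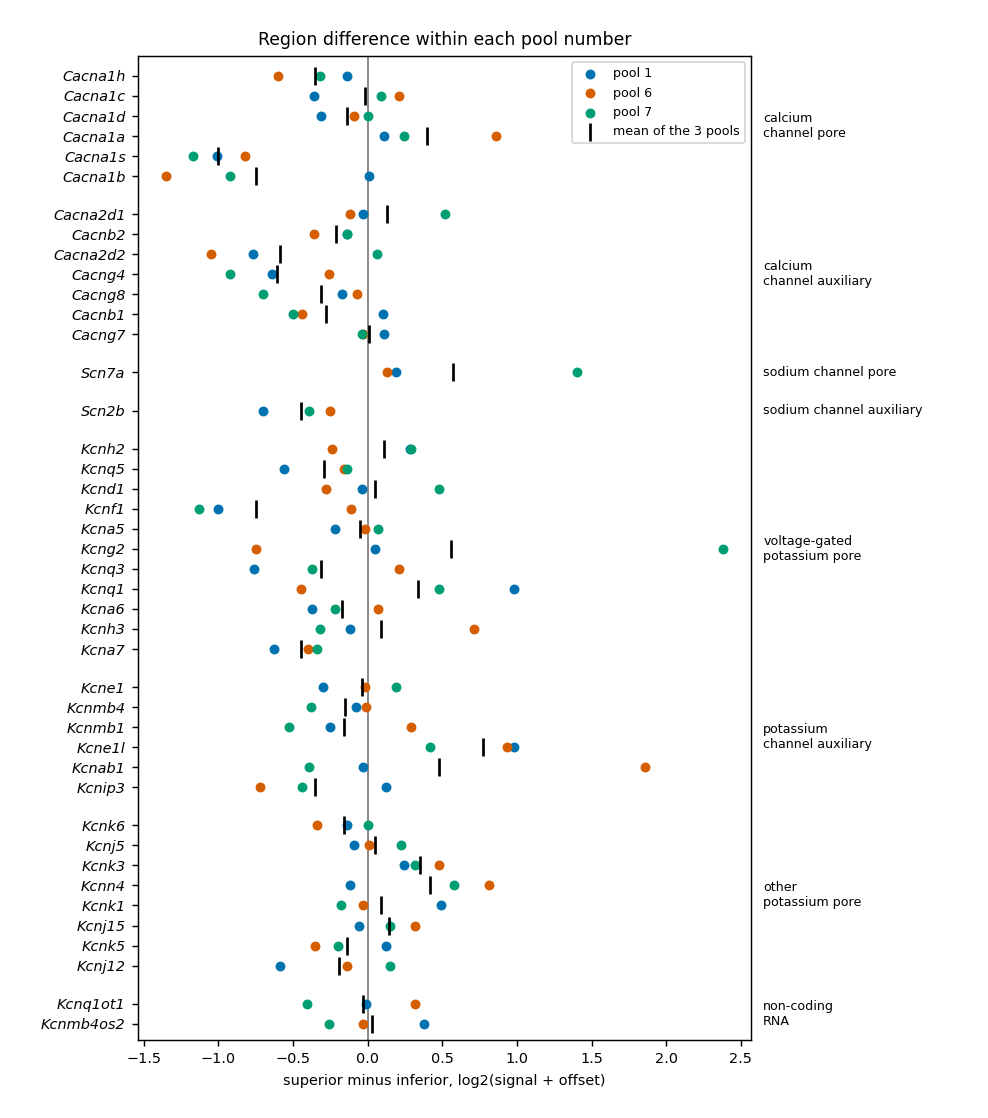
Superior minus inferior difference in log2(signal + 3.2) within pools 1, 6 and 7 (coloured points) and their mean (black bar) for the brightest probe set of each of the 42 genes, grouped by role. Points of a gene often fall on both sides of 0, while Kcne1l and Kcnk3 lie to the right and Cacna1h and Scn2b to the left in all 3 pools, as some others do.

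Voltage-gated potassium pores supplied 11 members of 31 genes with a probe set, 6 lower and 5 higher in superior pools. Kcna7, a member through inferior arrays alone, is among the 6. Their median log2 difference was -0.05, and it turned to 0.03 under quantile normalization. Kcnh2 encodes the ERG pore of the rapid delayed rectifier current. It had signals of 150.9, 126.2 and 189.5 in superior and 123.4, 149.5 and 154.4 in inferior pools. The regions overlapped (log2 0.11 ± 0.18), and without superior pool 7 the value was -0.04. Kcnq1, the pore of the slow delayed rectifier, was dim, with 27.9, 19.1 and 37.2 against 12.6, 27.2 and 25.7. Inferior pool 1 was low, and the pool differences of 0.98, -0.45 and 0.48 did not share a sign. Kcna5, the pore of an ultrarapid potassium current, gave 35.3, 35.6 and 31.2 against 41.5, 36.1 and 29.5, values within a narrow band in both regions (log2 -0.05 ± 0.19).

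Kcnf1 encodes a modifier subunit that forms no channel on its own. Its signals were 29.5, 23.6 and 22.6 in superior and 62.0, 25.8 and 53.2 in inferior pools. Inferior pools 1 and 7 were high and inferior pool 6 was level with the superior arrays. The means of 25.2 ± 3.73 and 47.0 ± 18.9 gave a log2 difference of -0.75 ± 0.31, made up of -1.0, -0.11 and -1.13. The paired fit without pool 6 called Kcnf1 (log2 -1.06 ± 0.18, limma adjusted p = 0.0332) and a dimmer Kcnq1ot1 probe set (-1.18 ± 0.19, adjusted p = 0.0249). That fit has 1 residual degree of freedom among 4 arrays and called 231 probe sets in all, and no other setting called a member.

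Kcna7, a Shaker-type pore, had 10.5, 15.8 and 16.1 in superior and 18.0, 21.8 and 21.2 in inferior pools. All inferior values were higher (log2 -0.45 ± 0.23), but it was a member only through them, with a superior mean of 14.1. Kcnq5, another KCNQ-type pore, also did not overlap, with superior signals of 53.1 ± 6.83 and inferior signals of 65.3 ± 4.39 in its brighter probe set. Another modifier gene, Kcng2, shows how far a dim probe set can scatter. Chosen here after its values were seen, it had 37.0, 18.7 and 59.9 against 35.6, 33.7 and 8.9, and its pool differences were 0.05, -0.75 and 2.38. The other members of the group, Kcnd1, Kcnq3, Kcna6 and Kcnh3, had log2 differences of 0.05, -0.31, -0.17 and 0.09, each with pools on both sides of 0.

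Auxiliary potassium channel subunits held 6 members of 15 genes, with 4 lower in superior pools and a median of -0.10. Kcne1 encodes the small subunit that slows KCNQ1 channels. Signals were 152.0, 146.6 and 54.6 in superior and 187.6, 148.4 and 47.5 in inferior pools, so both arrays of pool 7 were low and the regions were alike (log2 -0.04 ± 0.58). Kcne1l, an X-linked relative in the same family, had 51.1, 42.1 and 23.0 against 24.4, 20.6 and 16.4. Superior tissue was higher in each pool, with 1 superior value under 1 inferior value. Its means of 38.7 ± 14.4 and 20.5 ± 4.0 gave a 1.71-fold higher superior signal, a log2 difference of 0.77 ± 0.30, and within pools 0.98, 0.93 and 0.42. The paired fit's smallest adjusted p among members, 0.24, belonged to this gene.

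Kcnmb4 and Kcnmb1 encode beta subunits of the large calcium-activated potassium channel, the latter known from smooth muscle. The brightest of 5 probe sets of Kcnma1, the pore they attach to, had a mean signal of 4.9, under the background level. Kcnmb4 was steady, with 115.5, 121.0 and 110.9 in superior and 122.0, 122.0 and 144.9 in inferior pools. The regions did not overlap, yet the log2 difference was only -0.15 ± 0.14. Kcnmb1 had 96.9, 76.3 and 79.8 against 116.1, 61.6 and 116.5, with an inferior range wider than the difference (log2 -0.16 ± 0.26). Kcnab1, a cytoplasmic beta subunit, and Kcnip3, a calcium-binding partner of Shal channels, were dim, with mean differences of 0.48 and -0.35 whose sign was not the same in all pools.

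Among potassium pores of other kinds 8 of 33 genes were members, with a median log2 difference of 0.07. Kcnk3, a leak channel sensitive to acid, had 102.1, 73.4 and 62.8 in superior and 85.7, 51.7 and 49.5 in inferior pools. Superior tissue was higher in each pool by a similar amount, 0.24, 0.48 and 0.32 in pools 1, 6 and 7, on top of a high pool 1. The mean difference was 0.35 ± 0.26 in the unpaired fit, and the SE of the paired fit was 0.13 (paired adjusted p = 0.411). Kcnk6, another member of the tandem-pore family, had 237.4, 232.4 and 167.4 against 262.7, 294.7 and 166.9, with low signals in both arrays of pool 7 (log2 -0.16 ± 0.24). Kcnj5, a subunit of the acetylcholine-activated channel of atrial and pacemaker cells, had 109.9, 92.1 and 85.5 against 117.3, 91.6 and 72.8, which overlapped throughout (log2 0.05 ± 0.20). Its usual partner Kcnj3 was no member and had superior and inferior means of 9.77 and 6.43. Kcnj12, an inward rectifier, had 11.3, 15.5 and 19.1 against 18.6, 17.4 and 16.9 (log2 -0.19 ± 0.23). The inward rectifier Kcnj15 and the leak channels Kcnk1 and Kcnk5 had log2 differences of 0.14, 0.09 and -0.14, with pools on both sides of 0. The calcium-activated channel gene Kcnn4 again shows probe sets in disagreement, at 0.42 ± 0.36 for the brighter and -1.0 ± 0.41 for the dimmer one, which was a member through its inferior arrays alone and lay under background in superior pool 1. Of the 10 genes with several member probe sets, 4 had probe sets of opposite sign: Cacna2d1, Cacng4, Cacna1a and Kcnn4.

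Kcnq1ot1 is a long RNA transcribed antisense to Kcnq1 that silences neighbouring imprinted genes. It had 4 member probe sets. The brightest gave 288.9, 177.6 and 166.5 in superior and 291.1, 141.8 and 221.7 in inferior pools, with pool 1 high in both regions and no shared direction (log2 -0.03 ± 0.30). The other 3 gave -0.29, -0.39 and -0.18. Kcnmb4os2, transcribed opposite Kcnmb4, had superior and inferior means of 23.8 and 23.4.

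Pool numbers separated the arrays more than regions did, for these genes as for the whole table. A test of the 3 pool numbers in the fit with region and pool (limma F test, chosen after the Kcne1 signals had been seen) called 3174 of the 22518 probe sets, or 14.1%. Among the members it called 10 of 53 probe sets, or 18.9%, from 9 genes, a share near that background. Both arrays of pool 1 lay below the other 4 for 3 of the 53 (20.2% of all tested) and above them for 7 (16.5%). For pool 6 both lay below for 7 (9.40% of all) and above for 7 (7.69%), and for pool 7 below for 8 (8.23% of all) and above for 6 (9.64%). Kcne1 had the smallest adjusted p, 0.000726. Its signals in pools 1 and 6 were 2.97-fold those in pool 7, and pool 7 minus the mean of the others was -1.4 in superior and -1.75 in inferior tissue on the log2 scale. The dimmer Kcne1 probe set was also called (adjusted p = 0.0244), with 25.7, 43.5 and 21.1 in superior and 39.9, 60.9 and 16.2 in inferior pools. Both arrays of pool 7 were again the lowest, and both Kcne1 calls held when any 1 array was left out. Over the other settings the brighter probe set was called in 8 of 8 and the dimmer in 5 of 7, with adjusted p up to 0.0769.

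Cacna1d was 1.76-fold higher in pools 1 and 7 than in pool 6 (adjusted p = 0.0119), and the dimmer Kcnq5 probe set 2.63-fold (0.0107), but that probe set was under the background level in both arrays of pool 6. These calls too held without any 1 array. Kcnq1ot1 (0.0261) and Kcnk3 (0.0345) were highest in pool 1, by 1.65-fold and 1.56-fold over the others. Kcnk6 (0.0213) was 1.52-fold and Kcnj15 (0.0341), an inward rectifier, 1.79-fold lower in pool 7 than elsewhere. The dimmer Cacnb2 probe set (0.0202) and Cacng7 (0.0276) were lowest in pool 1. The first was lower by 1.74-fold there, while Cacng7 had 8.6 and 7.7 in pool 1, at or near the background level, which allows no exact fold. Each of these 6 calls was lost when some array was left out. The member count was 5 without superior pool 1 and 5 without inferior pool 1, and it reached 15 without inferior pool 6.

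Other measures moved with the pool number as well, or stood apart on a single array. The ratio of 3′ to 5′ signals of the Gapdh control probes, a sign of RNA integrity, was 1.30 and 2.21 in superior and inferior pool 1 and between 0.832 and 0.899 on the other 4 arrays. For the actin control probes it was 2.23 and 2.26 in superior and inferior pool 1 and between 1.45 and 1.87 on the other 4. The hybridisation controls stood apart on 1 array only, superior pool 6, at 1.59 times those of the median array. The other arrays were at 0.905 to 1.03, with inferior pool 6 at 0.905. The 4 markers of cushion mesenchyme, all above background, had mean summed signals of 4184, 5095 and 3108 in pools 1, 6 and 7, and the 6 epicardial markers 1056, 1192 and 671. Postn made up much of the cushion sum. The pool test called 4 of the 4 cushion markers and 4 of the 6 epicardial ones. Each marker of these groups had its lowest mean in pool 7. Of 5 endocardial and endothelial markers 3 were called between pool numbers. In pools 1, 6 and 7 Pecam1 was at 50.9, 176 and 176 (adjusted p = 0.000328) and Emcn at 101, 74.95 and 221 (0.00428). The third, Tek, was at 634, 775 and 506 (0.0434). Uncalled were Nfatc1 at 256, 277 and 210 and Cdh5 at 292, 255 and 302, so the 5 markers did not share 1 pattern. The part of these cells in the pool differences was not tested. The summed heart muscle markers were 21916, 22872 and 22580 in pools 1, 6 and 7. Even so, 2 of these 7 markers were called between pool numbers and were lowest in pool 6. Myh6 was at 1664, 942.5 and 1624 (adjusted p = 0.0426) and Nkx2-5 at 484, 375 and 511 (0.0492). The part of heart muscle in the pool differences was not tested either. The labels do not say whether a pool number stands for a litter, a dissection or a hybridisation.

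**Figure D3:**
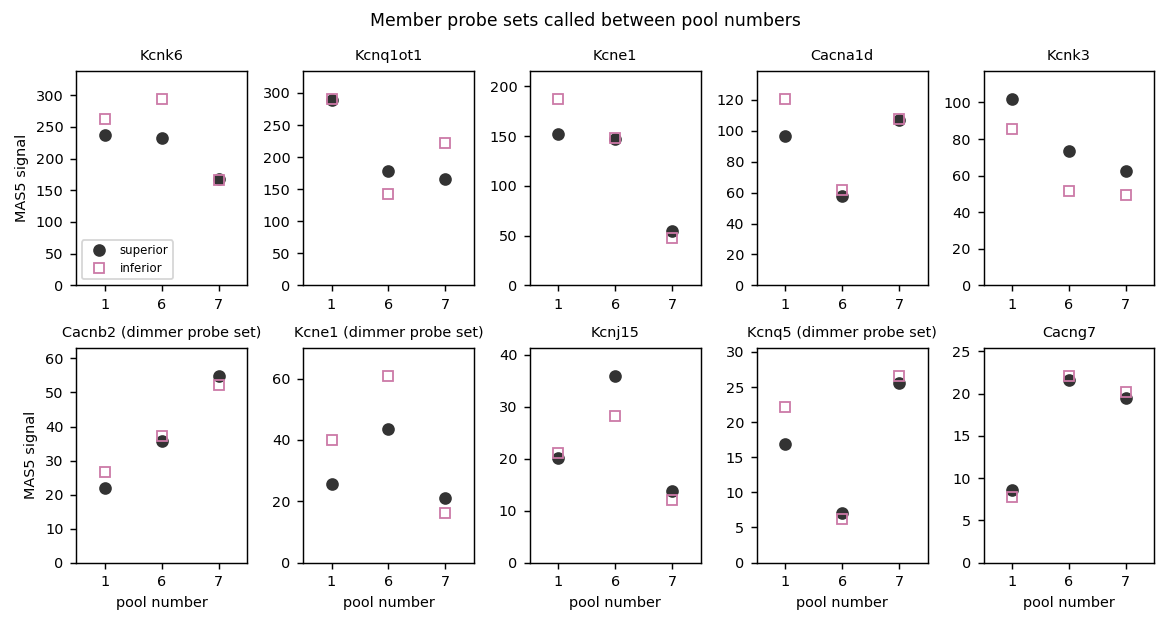
MAS5 signal by pool number for the 10 member probe sets called between pool numbers, with filled circles for superior and open squares for inferior pools (linear axes from 0, 1 array per point). In the panel of the brighter Kcne1 probe set both points of pool 7 lie near 50 while the other 4 lie above 140, and in the panel of Cacna1d both points of pool 6 lie at the bottom.

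Markers of other cells of the dissected tissue were also set beside the region differences. The 6 epicardial markers were all higher in superior pools, with summed signals of 886 to 1631 in superior and 456 to 752 in inferior pools and 4 of 6 called in the paired fit. The unpaired fit called 0 of the 6, all of which had an unadjusted p under 0.05, and the paired fit with plain eBayes variance called 0 probe sets in the whole table. Of 7 neuronal markers 6 lay above background on all arrays, Dcx lay at or under it on all, and the summed signals of 435.5 to 546.8 in superior and 444.2 to 623.7 in inferior pools overlapped. Stmn2 made up much of that sum. Of the 5 neuronal markers tested 4 were lower in superior pools (median -0.36 on the log2 scale), and Elavl3 (-0.64) and Snap25 (-0.39) did not overlap between regions. The 3 measured markers of neural crest and glia summed to 37.2 to 46.9 in superior and 49.1 to 54.5 in inferior pools, with Foxd3 under background on every array. Ngfr gave this difference, with means of 19.8 and 35.5, while Sox10 was higher in superior pools, at 20.1 and 15.9. All 3 tested smooth muscle markers were higher in superior pools (median 0.17 on the log2 scale), as were the 2 tested blood markers (0.23). Of 5 endocardial and endothelial markers 4 were higher (0.03), and of 4 cushion mesenchyme markers 3 were lower (-0.22). Neither fit called any marker of these last lists between regions. The part of these cells in any channel difference was not tested.

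Other genes of excitation and calcium handling were described from a list of 46, of which 38 had a probe set and 30 were tested. Neither limma fit called any of them between regions, 1 having an unadjusted p under 0.05 without pairing. Of the 30, 13 were higher and 17 lower in superior pools, and the median of their log2 differences was -0.02. Sln, which encodes the sarcolipin inhibitor of the calcium pump, had superior and inferior means of 97.6 and 59.1 (log2 0.72, paired adjusted p = 0.122). Between pool numbers 9 of the 30 were called, against 14.1% of all probe sets tested. Sln was at 87.6, 119 and 28.2 in pools 1, 6 and 7 (adjusted p = 0.000480), low in pool 7 as Kcne1 was, and Slc8a1, the sodium-calcium exchanger, was at 90.5, 174 and 226 (adjusted p = 0.00146). Of the ATP-sensitive channel subunits, Kcnj11 had superior and inferior means of 50.7 and 53.1 and Kcnj8 10.3 and 9.47, while their regulatory partner Abcc9 was higher in superior pools, with means of 99.1 ± 56.7 and 24.9 ± 3.12 (log2 1.71, paired limma adjusted p = 0.0484). That call was absent from the unpaired fit (adjusted p = 1) and from the paired fit with plain eBayes variance.

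Much of the family gave little or no signal. Of the 75 genes that were no members, 56 had their brightest probe set at or under the background level on average. The fixed list of 23 cardiac channel genes had 20 with a probe set, of which 13 were members. The 7 others were Scn4b, Kcnd3 and Cacna1g, with mean signals of 14.3, 13.8 and 13.2, Kcnj3, Kcnd2 and Kcnip2, with 8.10, 7.47 and 6.13, and Kcnj2, with 0.417. Kcnj2 and Kcnd2 encode pores of the inward rectifier and transient outward currents of mature ventricular muscle, and Kcnip2 the partner of the latter. A low signal of a probe set does not show that a gene was silent.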

How the data were processed

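The authors hybridised biotin-labelled RNA from 6 tissue pools to Affymetrix mouse expression arrays, per the labels and the design text of the series. The deposited values are linear intensity signals, for which the submitters' processing notes name MAS5, with no version in the sources used here. Each array had a mean of 100 after trimming 2% at either end. Arrays hold no counts, and their number limits the precision. The 64 control probe sets were left out. Gene names came from GEO's platform annotation, and the 252 family probe sets were checked by gene ID against RefSeq (GRCm38.p6), which changed 0 symbols. Signals became log2(signal + 3.2), 3.2 being the 25th percentile of all signals, so fold changes of dim genes are understated. Probe sets with a mean log2 value above the median (a signal of about 15.1) were tested with limma 3.58.1 in R 4.3.3 (lmFit, eBayes with trend and robust variance, Benjamini-Hochberg adjustment over 22518 probe sets); the scripts were tested on simulated data. The planned fit had no pool term. Deviations of same-numbered arrays from their region means correlated at 0.79, 0.43 and 0.51 for pools 1, 6 and 7, all above the limit of 0.1. Equal numbers were therefore taken as pairs, and the paired fit is given too. Superior 7 with inferior 6 and superior 6 with inferior 7 also exceeded that limit, at 0.20 and 0.18. Pool 1 with other numbers gave -0.54 to -0.46. Nothing says that pools came from separate litters, so p-values measure the spread between these pools.

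Members and gene lists were chosen with earlier results of these data known. Values on every array are given for the 12 genes with the brightest probe sets, the 10 with the largest difference of 1 direction in all 3 pools, and the 13 members of a fixed list of cardiac channels, 25 genes in all. Cacna1b and Kcng2 were added after their values were seen. Alternatives changed the offset, filter, scaling, variance model and block and left out arrays or pools.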

Additional observations from a re-analysis of the deposited data

How the results depend on the processing

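The count of 0 members called between regions held in every setting tried but 1: with the replicate block and pool 6 left out, 2 were called. In the fits with the pool number as a block, 36 probe sets were called over the whole table, 0 with plain eBayes variance and 9, 231 and 116 without pools 1, 6 and 7. The pool test of all probe sets, 3174 as reported, gave 1660 without the filter on dim probe sets, 1970 with plain eBayes, 1444 in the top 25% by signal and 1064 to 5384 leaving out an array. The same settings gave 3, 6, 3 and 5 to 15 member probe sets, against 10.

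The median difference of calcium channel auxiliary genes, -0.28, was -0.19 with an offset of 16, -0.20 under cyclic loess, -0.04 in the top 25% by signal, -0.19 with probe sets of a gene averaged and -0.40 for members above a signal of 30. It ran from -0.40 to -0.17 when an array, or a pool in the fit with the block (-0.38 without pool 1), was left out. Calcium channel pores (-0.24) gave -0.14 above a signal of 30 and -0.37 to -0.15 leaving out arrays or pools. Cacna1s and Cacna1b among the pores and Cacnb1 among the auxiliary genes were members through inferior arrays alone. Part of both medians was thus fixed by the rule, while the values above a signal of 30 and in the top 25% leave these genes out. Other potassium pores (0.07) gave -0.16 in the top 25% and -0.05 with probe sets averaged, and -0.05 to 0.11 on leaving out arrays or pools. Voltage-gated potassium pores (-0.05) gave 0.11 in the top 25%, 0.03 under quantile normalization, 0.01 under cyclic loess and 0.00 above a signal of 30, with -0.22 to 0.02 on leaving out arrays or pools. The cause was not tested.

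Of 24 named genes tested, 13 kept their sign in every setting run, up to 19 for a gene. For 9 of the 13 this is no sign of stability, since they were named for having 1 direction in all 3 pools. Signs turned to 0.01 for Kcnq1ot1 and 0.02 for Cacna1c under 75th percentile scaling. Under quantile normalization they turned to 0.01 for Cacna1c, 0.01 for Kcne1 and 0.03 for Kcna5, and under cyclic loess to 0.02, 0.00 and 0.01 for the same genes. Leaving out arrays or pools gave ranges that crossed 0: -0.09 to 0.25 for Cacna2d1 (-0.07 in the blocked fit without pool 7), -0.40 to 0.00 for Kcnk6, -0.31 to 0.20 for Kcnq1ot1, -0.04 to 0.29 for Kcnh2, -0.14 to 0.15 for Cacna1c (-0.11 to 0.15 over single arrays), -0.62 to 0.42 for Kcne1 (0.09 in the blocked fit without pool 1), -0.12 to 0.21 for Kcnj5, -0.42 to 0.13 for Cacna1d, -0.46 to 0.02 for Kcnmb1, -0.17 to 0.05 for Kcna5 and -0.36 to 0.01 for Kcnj12. All of these differences were uncalled. The number of arrays limits the precision: the paired fit leaves 2 residual degrees of freedom. Of the 55 member probe sets, 51 were above background on all 6 arrays.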
